A study of Trichoderma reesei with 12 samples.

Results

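The effect of a deletion of rgs4 on the transcriptome in constant light (LL) was followed in 6 of the 12 libraries of the series. These were 3 libraries of Δrgs4 LL and 3 libraries of wild-type LL, chosen by the strain and the light condition in their labels, and all 10879 genes of the table were considered. Trichoderma reesei is a filamentous fungus used for the production of plant cell wall degrading enzymes. In Δrgs4 the gene rgs4 of the wild-type QM6a was replaced by a hygromycin resistance cassette, and QM6a carries no such marker. Both strains grew as mycelium for 96 h in liquid minimal medium with cellulose as carbon source, and the labels name no other agent. The other 6 libraries are of both strains in constant darkness (DD), and their spread entered the same fit. Δrgs4 is represented by 1 strain, which carries more than 1 copy of the cassette, so that effects of the missing gene and of the inserted DNA cannot be told apart.

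RGS4 belongs to the regulators of G-protein signaling. Proteins of this family speed up the hydrolysis of GTP by the alpha subunit of heterotrimeric G-proteins and thereby end the signal that a receptor has started. In fungi this pathway, together with cAMP, is known for relaying nutrient and light signals to growth, sporulation and enzyme formation. T. reesei responds to light through photoreceptors, and the transcript levels of many of its genes differ between light and darkness.

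The deleted gene was checked first. TrG0496W (rgs4) had 4, 0 and 0 reads in Δrgs4 LL and between 1470 and 2040 reads in wild-type LL. The mean of Δrgs4 was 0.0672% of that of the wild-type, close to the 0.0544% that 3 reads over the whole group would give. With 3 libraries against 3 the exact permutation test (two-sided) cannot go below p = 0.1, which it reached. This gene thus separated the 6 libraries as their labels do. Reads on genes ranged from 12.58 to 15.84 M (M, mega) in Δrgs4 LL and from 11.25 to 15.67 M in wild-type LL. The spread between replicates was somewhat larger in Δrgs4, with a median SD per gene of 0.135 on the log2 scale in Δrgs4 and 0.111 in the wild-type. Correlations of Δrgs4 LL replicate 2 with the other light libraries went down to 0.975, the lowest value among the 6 libraries.

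Transcript levels are given as normalized counts, which are reads after division by each library's size factor. The comparison used limma on log2(normalized counts + 2), a scale on which the change of genes with few reads is understated. A gene was called at a log2 fold change beyond 0.58 (1.49-fold) in either direction and a Benjamini-Hochberg adjusted p < 0.05. Of the 8895 genes with enough reads, 150 were called lower in Δrgs4 (1.69%) and 38 were called higher (0.427%). With upper-quartile in place of the deposited scaling these numbers were 191 and 21. A decrease of more than 2-fold was found for 29 of the genes called lower, and an increase of this size for 7 of the genes called higher. Without rgs4 itself, the median log2 fold change of the genes called lower was -0.77, that of the genes called higher was 0.75, and that of all genes tested was 0.02. As these are bulk cultures, fewer cells of a kind and less transcript per cell cannot be told apart.

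Libraries of the strains were separate in all 150 genes called lower and in 37 of the 38 genes called higher. Over all genes tested, each Δrgs4 library was below every wild-type library for 16.1% and above every one for 17.9%, so that separate libraries alone are common in this comparison. Calls depended on single libraries. Of the 150 genes called lower, 36 were called in all 6 fits in which 1 LL library was left out, and 70 in fewer than 3 of these fits. Of the 38 genes called higher, TrC0596C, TrG0359C and TrA1371W stayed called in all 6 fits, and 21 genes in fewer than 3. With limma-voom, TrG0359C and TrA1371W were not called, so that TrC0596C was the 1 gene called higher that was kept in the 6 fits, with only the 6 LL libraries and with limma-voom. Without wild-type LL replicate 2, 43 genes were called lower and 7 higher. Without wild-type LL replicate 1 the numbers were 91 and 21, and without Δrgs4 LL replicate 2 they were 92 and 23. Without Δrgs4 DD replicate 2, which enters only through the spread, 25 genes were called higher.

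**Figure D1:**
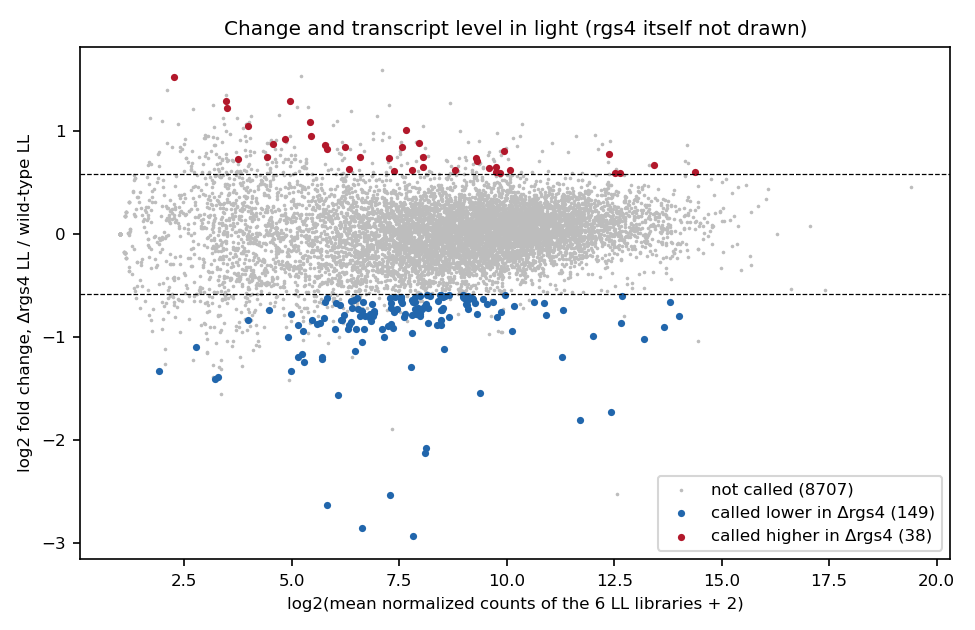
The log2 fold change of Δrgs4 LL over wild-type LL (vertical axis) is plotted against the mean transcript level of the 6 LL libraries (horizontal axis, log2 of normalized counts + 2), with 1 point per gene tested and dashed lines at 0.58 in both directions. Blue points are the 149 genes called lower, red points the 38 genes called higher, and the deleted gene is not drawn. The blue points gather at low to middle levels.

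The direction of the changes differed with the transcript level. Among the 1666 genes with a mean of 64 to 256 normalized counts in light, 65 were called lower (3.90%) and 9 higher (0.540%), and 44.1% of these genes had a higher mean in Δrgs4. Among the 662 genes with 4096 or more normalized counts, 8 were called lower and 5 higher, and 70.2% had a higher mean in Δrgs4, with a median log2 fold change of 0.11. The shift of the abundant genes was thus small but went the other way than most calls. Of the calls, 12 lower and 9 higher ones concern genes with fewer than 50 normalized counts in both strains in light. At least 2 times as many normalized counts were found in darkness for 3 and 7 of these, and for such genes the spread in light can be underestimated, since it is taken from the level over all 12 libraries. This also concerns TrG0359C and TrA1371W, whose means in light exceeded 50 normalized counts only in Δrgs4 and were far higher in darkness.

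Roles were taken from the gene descriptions of the study for 104 genes in 11 lists. These genes were picked by the study from comparisons of the same libraries, so that their number of calls is no independent evidence of a direction. All 104 genes had enough reads for a test. Of these, 50 were called lower, 17 were called higher and 37 were not called, against 1.69% lower and 0.427% higher over all genes tested. Their median log2 fold change was -0.66. The selection and the shares over all genes tested apply to each of the 11 lists, whose counts of calls show no direction of a class.

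**Figure D2:**
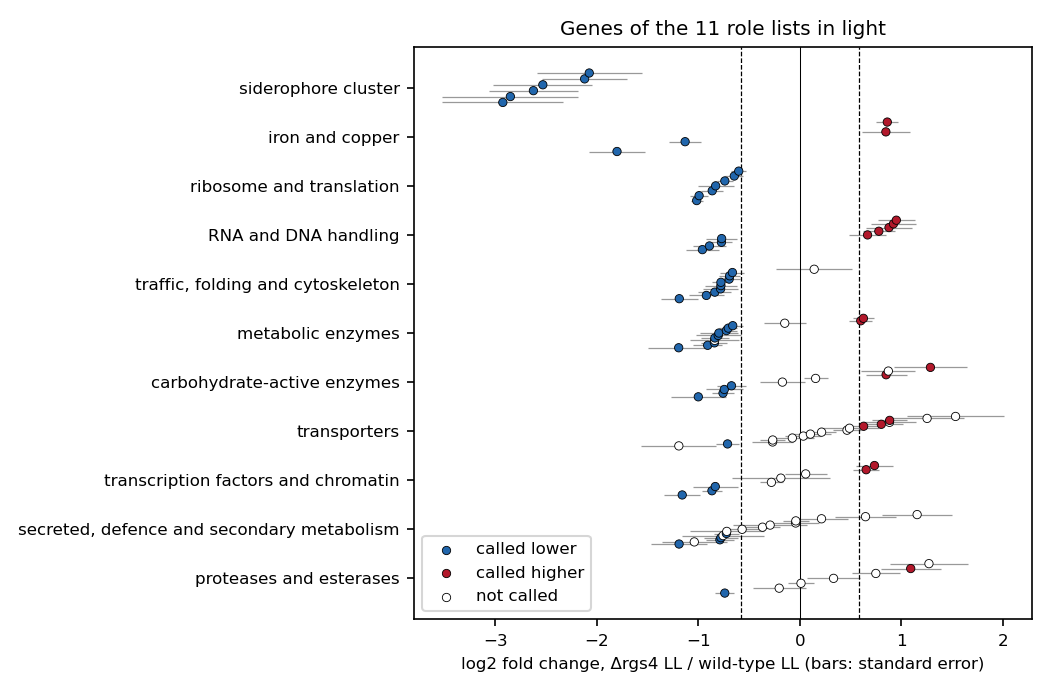
Each point is 1 of the 104 genes, grouped by role list from top to bottom, with its log2 fold change of Δrgs4 LL over wild-type LL on the horizontal axis, the standard error as a bar, and dashed lines at 0.58 in both directions. Blue points were called lower, red points higher and white points were not called. All 6 siderophore cluster genes lie at -2.08 or below, and the 7 ribosome and translation genes lie between -1.02 and -0.60.

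The largest decreases apart from that of rgs4 were found in the siderophore cluster. Siderophores are small iron chelators that fungi secrete and take up again with the bound ferric iron, and those of the fusarinine type are built from modified ornithine by a non-ribosomal peptide synthetase. In Δrgs4 all 6 genes of the cluster were called lower in light, with log2 fold changes from -2.93 to -2.08. It comprises the synthetase, enzymes that prepare its building block, an esterase, and transporters.

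SID4 (TrE0011C), the non-ribosomal peptide synthetase, had 47.0, 86.6 and 172 normalized counts in Δrgs4 against 807, 344 and 201 in the wild-type. The acyltransferase gene SID6 (TrE0014C), related to SidF, had 69.6, 66.1 and 159 normalized counts in Δrgs4 against 732, 357 and 243 in the wild-type. For SID8 (TrE0015W), an enoyl-CoA hydratase related to SidH, the values were 9.04, 10.3 and 17.4 normalized counts in Δrgs4 against 166, 82.1 and 41.7 in the wild-type. In each of these genes every Δrgs4 library was below every wild-type library. Their log2 fold changes were -2.08, -2.12 and -2.63, with standard errors of 0.52, 0.42 and 0.44 and adjusted p of 0.0335, 0.0155 and 0.00786, in this order.

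The siderophore esterase gene TrE0012W, whose product type releases iron by cleaving the ferric siderophore, had 39.8, 25.1 and 55.9 normalized counts in Δrgs4 against 463, 208 and 128 in the wild-type (log2 fold change -2.53, adjusted p = 0.0146). The ABC transporter gene TrE0013C had 22.6, 36.5 and 87.1 normalized counts in Δrgs4 against 711, 306 and 167 in the wild-type (log2 fold change -2.93, adjusted p = 0.017). Transcripts of the siderophore transporter TrE0016W amounted to 5.43, 19.4 and 46.8 normalized counts in Δrgs4 against 314, 129 and 68.3 in the wild-type (log2 fold change -2.85, adjusted p = 0.0269). The esterase gene and both transporter genes of the cluster were thus among the decreased ones, again without overlap between the libraries.

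The 6 genes also varied together between replicates of a strain. All 6 were highest in replicate 1 and lowest in replicate 3 of wild-type LL, and all 6 were highest in replicate 3 of Δrgs4 LL. Summed over the cluster, Δrgs4 LL had 194, 244 and 538 normalized counts and wild-type LL had 3194, 1427 and 849. The highest Δrgs4 library thus stayed below the lowest wild-type library, although the wild-type libraries differed among themselves by more than the gap between the strains. In darkness the same sums were 42.3, 52.7 and 29.5 in Δrgs4 and 47.3, 41.7 and 51.3 in the wild-type. The difference between the effects in light and in darkness was tested by limma as an interaction. Of the 6 genes only SID6 had a called interaction (adjusted p = 0.0442), kept in 2 of the 12 fits without 1 library. For the other genes of the cluster its adjusted p lay between 0.0771 and 0.261, so that a light-dependent effect was not shown for them. As to the calls in light, only SID8 stayed called in all 6 fits without 1 LL library. TrE0012W and SID6 were not called without wild-type LL replicate 2 (adjusted p of 0.0564 and 0.0595). TrE0013C was lost without wild-type LL replicate 1 or 2 or Δrgs4 LL replicate 2, with an adjusted p of up to 0.067. SID4 and TrE0016W were lost without each of these 3 libraries and without Δrgs4 LL replicate 1, with an adjusted p of up to 0.101 and 0.092. The log2 fold change of SID4, the smallest of the cluster, stayed between -2.54 and -1.54 in the 6 fits. Its call was also lost without wild-type DD replicate 2. When only the 6 LL libraries were fitted, TrE0012W and SID8 stayed called, whereas SID4, TrE0013C, SID6 and TrE0016W were lost, with an adjusted p of 0.101, 0.0557, 0.0614 and 0.0889. With limma-voom SID4 and TrE0016W were lost, with an adjusted p of 0.0514 and 0.0551. With the replicate number as a block all 6 calls were lost, with an adjusted p from 0.0617 for SID8 to 0.117 for SID4.

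The genes directly next to the cluster were not called. TrE0010C on one side had means of 119.9 normalized counts in Δrgs4 and 122 in the wild-type (log2 fold change -0.04), and TrE0017C on the other side had means of 0.306 in Δrgs4 and 0 in the wild-type. Of the 26 genes TrE0001 to TrE0026, 24 were tested and 8 were called lower. The 2 called genes outside the cluster, TrE0008W and TrE0020C, were chosen after their values were seen. TrE0008W had a mean of 0 normalized counts in Δrgs4 and 3.47 in the wild-type, too few for a statement on its size, and TrE0020C had 70.3 in Δrgs4 and 109 in the wild-type (log2 fold change -0.62, adjusted p = 0.0468).

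A second stretch of neighbouring genes was called lower around the iron transporter gene TrD0323C. This gene had 1409, 1154 and 1670.4 normalized counts in Δrgs4 against 7239, 2786 and 5724 in the wild-type. The change on the log2 scale was -1.80, with 0.28 as standard error (3.72-fold lower, adjusted p = 0.00598). It stayed between -2.20 and -1.52 and was called in each of the 6 fits without 1 LL library. The adjacent TrD0324W, for which no role was given, had 271, 254 and 249 normalized counts in Δrgs4 against 497, 330.1 and 408 in the wild-type (log2 fold change -0.65, adjusted p = 0.0281). Next to it, the cytochrome P450 gene TrD0325W had 177, 152 and 189.8 normalized counts in Δrgs4 against 304, 251 and 304 in the wild-type (log2 fold change -0.72, adjusted p = 0.00796). None of the libraries overlapped in these 3 genes. The call of TrD0324W was kept only without wild-type LL replicate 2 and lost in each of the other 5 fits (adjusted p of up to 0.0845, log2 fold change -0.50 at the least) and with only the 6 LL libraries, and that of TrD0325W was kept throughout. Of the 17 genes TrD0316 to TrD0332, 15 were tested, and these 3 were the only calls.

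**Figure D3:**
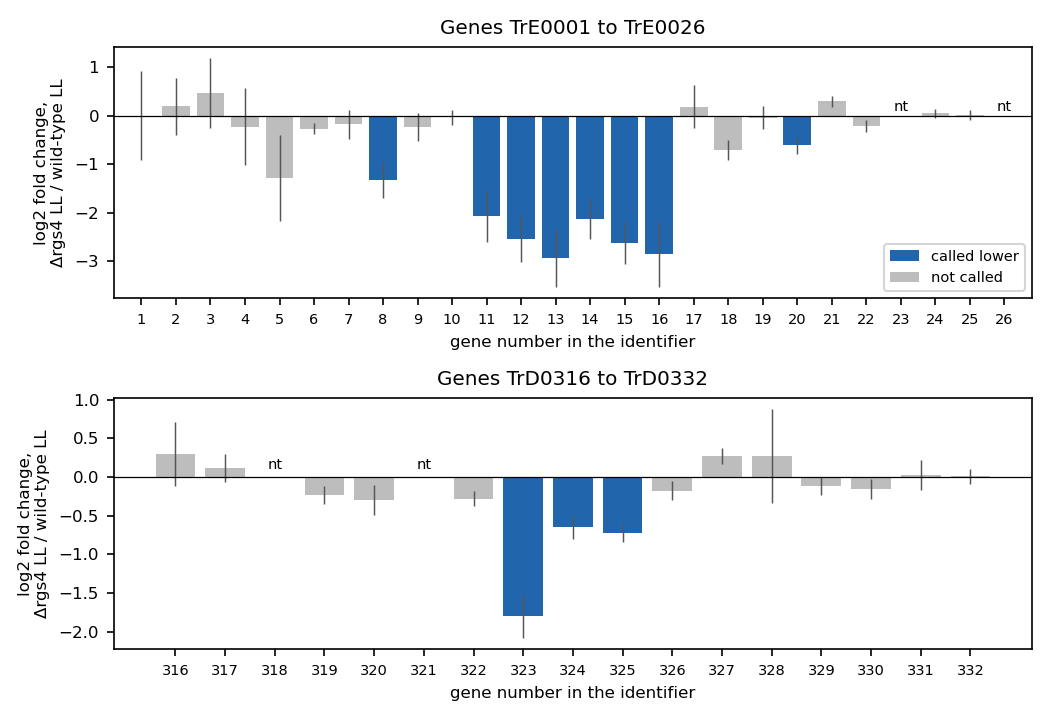
Bars are log2 fold changes of Δrgs4 LL over wild-type LL with standard errors for consecutively numbered genes (horizontal axis: gene number in the identifier), above for the surroundings of the siderophore cluster and below for those of the iron transporter gene. Blue bars were called lower, grey bars were not called and nt marks genes that were not tested. The run of blue bars covers 6 genes in the upper plot, beside 2 single blue bars, and 3 genes in the lower plot.

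Other genes of iron and copper handling went in both directions. The gene of the multicopper ferroxidase Fet3b (TrD0040C), whose counterpart in yeast oxidizes ferrous iron for high-affinity uptake, was higher in Δrgs4, with 271, 259 and 189 normalized counts in Δrgs4 against 88.0, 137 and 184 in the wild-type. Its lowest Δrgs4 library was only slightly above the highest wild-type library, and its log2 fold change was 0.85 (standard error 0.23, adjusted p = 0.0462). This call was lost in each of the 6 fits without 1 LL library except that without wild-type LL replicate 3, with an adjusted p of up to 0.12 and log2 fold changes from 0.57 to 1.09, and it was lost with TMM or upper-quartile scaling, with only the 6 LL libraries and with limma-voom. A gene for a secreted protein with a CFEM domain (TrG0359C), a cysteine-rich fold that in Candida albicans serves in uptake of heme iron, had 63.3, 74.1 and 68.8 normalized counts in Δrgs4 against 37.9, 34.7 and 37.9 in the wild-type. Without overlap between the strains, it had a change of 0.86 on the log2 scale (standard error 0.11, adjusted p = 0.00374) and was called in each of the 6 fits without 1 LL library, with values between 0.81 and 0.92. Its call was lost with limma-voom (adjusted p = 0.0723). In darkness its means were 1461 normalized counts in Δrgs4 and 1473 in the wild-type. Its spread in light can therefore be underestimated, since it is taken from the level over all 12 libraries. The secreted multicopper oxidase gene TrB0426W decreased, with 61.5, 41.0 and 58.7 normalized counts in Δrgs4 against 104, 131 and 121 in the wild-type (log2 fold change -1.13, adjusted p = 0.00452), and kept its call in each of the 6 fits without 1 LL library. Of the 4 genes on this list 2 were thus called lower and 2 higher.

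The 7 listed genes of the ribosome and of translation were lower in Δrgs4 in light, most of them with small errors. All 7 genes of this list were called lower, against 1.69% of all genes tested, and 5 of these calls were kept in each of the 6 fits without 1 LL library. As the study picked the listed genes from the same libraries, their number does not show a decrease of the class. The 2 acidic proteins P1 and P2 form the stalk of the large subunit, where elongation factors bind. Transcripts of rla1 (TrB1847W, P1) had 6052, 6124 and 6471 normalized counts in Δrgs4 against 11734, 13484 and 12549 in the wild-type, a 2.03-fold decrease (log2 fold change -1.02, standard error 0.0605, adjusted p = 1.4e-05). Those of rla2 (TrD0208W, P2) had 4409, 4356 and 4932 normalized counts in Δrgs4 against 7293, 9359 and 8356 in the wild-type (log2 fold change -0.86, adjusted p = 0.00374). In both genes the lowest wild-type library was far above the highest Δrgs4 library.

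Proteins of the small subunit followed. For rps28 (TrC1311W) the values were 2933, 2553 and 2811 normalized counts in Δrgs4 against 5228, 5635 and 5633 in the wild-type (log2 fold change -0.99, standard error 0.0873, adjusted p = 0.000561). In rps21 (TrB0594C) they were 1955, 1866 and 1908 normalized counts in Δrgs4 against 3234, 3139.9 and 3189.8 in the wild-type (log2 fold change -0.74, adjusted p = 0.00223), and the replicates of a strain were nearly equal. The gene of ribosomal protein S10 (TrB0953C) had 5431, 5227 and 5062 normalized counts in Δrgs4 against 7736, 7666 and 8469 in the wild-type (log2 fold change -0.60, adjusted p = 0.00374). Its change was close to the fold threshold and fell short of it without wild-type LL replicate 3 or Δrgs4 LL replicate 3, with a log2 fold change of -0.56 at the least and an adjusted p of at most 0.0183. A predicted mitochondrial ribosomal protein L11 gene (TrC1283C) had 422, 406 and 415 normalized counts in Δrgs4 against 650.2, 708 and 595 in the wild-type (log2 fold change -0.65, adjusted p = 0.00391). The gene of the alpha subunit of initiation factor eIF2 (TrE0569W), which brings the initiator tRNA to the ribosome, had 46.1, 53.6 and 47.7 normalized counts in Δrgs4 against 92.9, 96.5 and 77.8 in the wild-type (log2 fold change -0.83, adjusted p = 0.0213). Its call was lost in 4 of the fits, those without wild-type LL replicate 1 or 2 or without Δrgs4 LL replicate 1 or 3 (adjusted p of up to 0.0884).

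Summed over these 7 genes, Δrgs4 LL had 21247, 20586 and 21646 normalized counts, against 35967, 40088 and 38869.7 in wild-type LL. The corresponding sums in darkness were 26413, 24700.5 and 25170.5 in Δrgs4 and 24899, 25004 and 22169.9 in the wild-type. The wild-type in light stood above the other 3 groups, and no library of it overlapped with any of theirs. The difference between the effects in light and in darkness was tested as an interaction in the same fit. Over all genes tested, 45 interactions were called negative (0.506%) and 18 positive (0.202%). Of the 7 genes of this list 6 were among the negative ones, from -1.22 for rps28 (adjusted p = 0.00339) to -0.63 for TrC1283C (adjusted p = 0.0442), and those of rla1, rps21 and rps28 were kept in all 12 fits without 1 library. The study picked these genes from the same libraries, and the interaction contains the same light difference. Their number is therefore no independent evidence of a light-dependent effect on the class. Other ribosomal protein genes carry no role in the sources used here, so that the list does not stand for the ribosome as a whole.

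**Figure D4:**
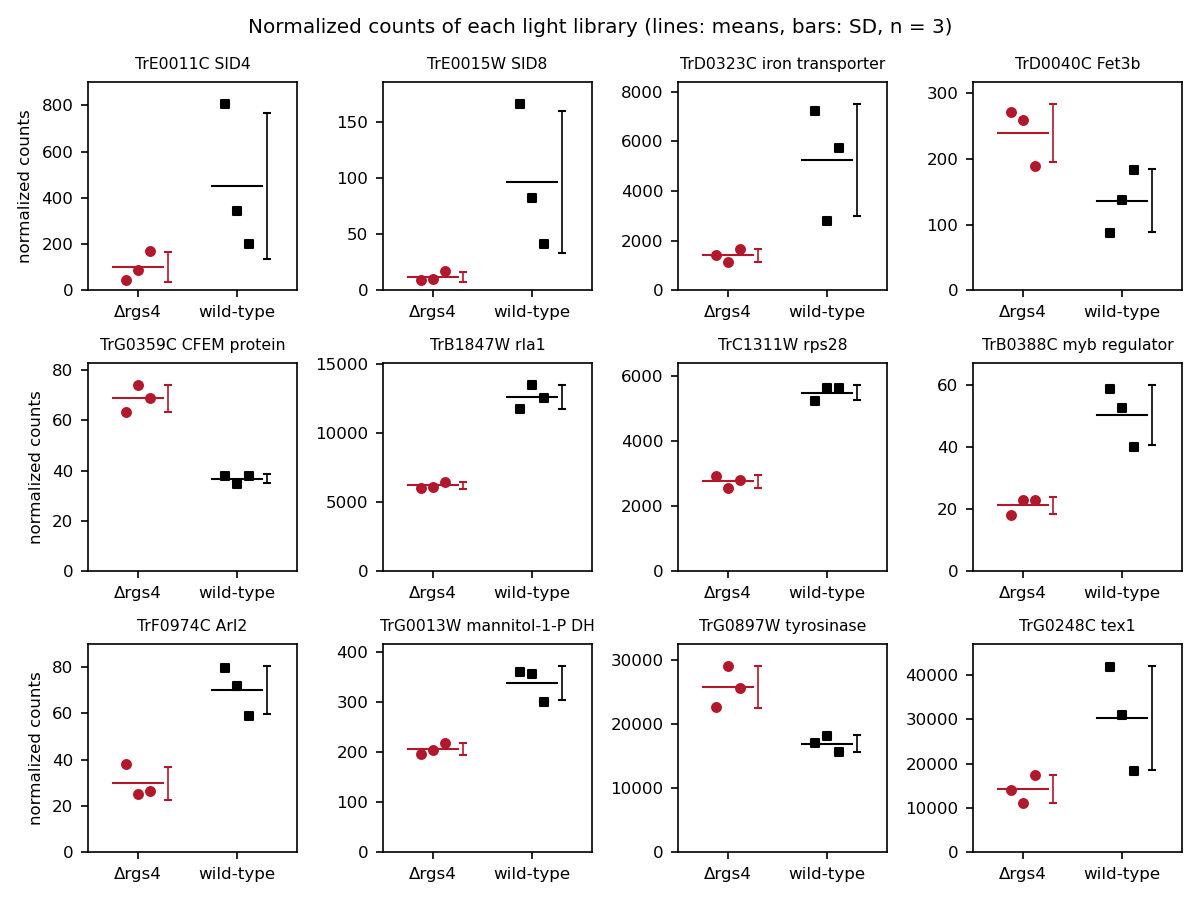
Normalized counts of each LL library are shown for 12 genes, with the 3 Δrgs4 libraries in red on the left and the 3 wild-type libraries in black on the right of each plot, horizontal lines at the means and bars for the SD (n = 3). The vertical axes start at 0. SID4, SID8 and tex1 show a wide spread in the wild-type, whereas rla1, rps28 and the CFEM protein gene show little spread in either strain.

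Genes that act on RNA and DNA were split, with 4 called lower and 5 called higher of 9. Lsm3 and LSm6 belong to the ring of Sm-like proteins on the U6 snRNA, a part of the spliceosome. Lsm3 (TrA2076W) had 124, 93.5 and 93.5 normalized counts in Δrgs4 against 185, 225 and 171 in the wild-type (log2 fold change -0.89, adjusted p = 0.0125), and LSm6 (TrA1443W) had 140.2, 164 and 141 normalized counts in Δrgs4 against 281, 345 and 251 in the wild-type (log2 fold change -0.96, adjusted p = 0.00893). An exonuclease family gene (TrA1514W) decreased with 192, 168 and 161 normalized counts in Δrgs4 against 310.4, 294 and 287 in the wild-type (log2 fold change -0.77, adjusted p = 0.00374). The gene for PSF1 (TrG0725W), a subunit of the GINS complex at the replication fork, decreased with 85.0, 84.4 and 73.3 normalized counts in Δrgs4 against 114, 164 and 144 in the wild-type (log2 fold change -0.77, adjusted p = 0.0168). For LSm6 and TrA1514W the calls were kept in each of the 6 fits without 1 LL library. Lsm3 was lost without wild-type LL replicate 2 (adjusted p = 0.0608) and PSF1 without wild-type LL replicate 2 or 3 or Δrgs4 LL replicate 3 (adjusted p of up to 0.0748) and with only the 6 LL libraries.

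In the opposite direction, the AAA ATPase gene TrA1371W had 57.9, 63.8 and 45.8 normalized counts in Δrgs4 against 23.2, 33.0 and 27.5 in the wild-type (log2 fold change 0.95, adjusted p = 0.0153) and kept its call in each of the 6 fits without 1 LL library, but not with limma-voom (adjusted p = 0.159). The AAA+ type ATPase gene TrB1478C had 7908, 6292 and 5868 normalized counts in Δrgs4 against 4115, 3492 and 4015 in the wild-type (log2 fold change 0.78, adjusted p = 0.0169), and was lost only without wild-type LL replicate 2 (adjusted p = 0.0763). A DNase gene (TrA0501W) had 16367, 10469 and 13948 normalized counts in Δrgs4 against 8649.8, 8364 and 8229 in the wild-type (log2 fold change 0.67, adjusted p = 0.0429). In none of these 3 genes did the libraries overlap. In darkness TrA1371W had means of 561 normalized counts in Δrgs4 and 491 in the wild-type, so that its spread in light can be underestimated. The DNase call was kept without Δrgs4 LL replicate 2 and lost in each of the other 5 fits (adjusted p of up to 0.132), and also with TMM or upper-quartile scaling and with only the 6 LL libraries. The calls of a DEAD-box helicase gene (TrA0526W, log2 fold change 0.92) and of a gene with RNA-dependent RNA polymerase and helicase domains (TrC0827C, 0.88) rested on fewer than 50 normalized counts in each library and were each lost in 4 of the 6 fits, both without wild-type LL replicate 1 or 2 or Δrgs4 LL replicate 2, TrA0526W also without Δrgs4 LL replicate 1 (adjusted p of up to 0.0957) and TrC0827C without Δrgs4 LL replicate 3 (adjusted p of up to 0.139). Both were also lost with only the 6 LL libraries and with limma-voom.

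Of the 10 listed genes of membrane traffic, protein import, folding and the cytoskeleton, 9 were called lower in Δrgs4 and none higher. Over all genes tested, 1.69% were called lower. As the study picked the listed genes from the same libraries, their number does not show a decrease of the class. The FKBP-type prolyl isomerase gene TrG1028C had at most 3.62 normalized counts in any LL library and was not called. Arl1 and Arl2 are small GTPases, of which Arl1 works at the Golgi and Arl2 in tubulin assembly. Arl2 (TrF0974C) had 38.0, 25.1 and 26.6 normalized counts in Δrgs4 against 79.4, 71.9 and 58.8 in the wild-type, which is 2.34-fold lower (log2 fold change -1.19, adjusted p = 0.00598). Arl1 (TrE0853C) had 97.7, 79.8 and 98.1 normalized counts in Δrgs4 against 171, 214 and 146 in the wild-type (log2 fold change -0.92, adjusted p = 0.0127). Neither gene showed overlap between the strains.

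Transcripts for routes into organelles changed to a smaller extent. The gamma subunit of the Sec61 channel, through which proteins enter the endoplasmic reticulum (TrG0334W), had 848, 797 and 983 normalized counts in Δrgs4 against 1319, 1576 and 1363 in the wild-type (log2 fold change -0.70, adjusted p = 0.00706). Tim17 (TrB0123W), a part of the import channel of the mitochondrial inner membrane, had 448, 374 and 407 normalized counts in Δrgs4 against 719.9, 642 and 624 in the wild-type (log2 fold change -0.69, adjusted p = 0.00596). A subunit of the Arp2/3 complex, which branches actin filaments, is encoded by the ortholog of N. crassa Arc15 (TrC0611W), with 437, 455 and 512 normalized counts in Δrgs4 against 719, 881 and 813 in the wild-type (log2 fold change -0.78, adjusted p = 0.00301). These 3 genes and Arl2 kept their calls in each of the 6 fits without 1 LL library.

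Of the remaining members, tropomyosin (TrE0404W), which stabilizes actin cables, had a log2 fold change of -0.66, and vacuolar protein sorting 55 (TrA0359W) had one of -0.84. The ubiquitin-conjugating enzyme gene TrA1754W was at -0.78 and prefoldin subunit 6 (TrB1223W), a co-chaperone for actin and tubulin, at -0.78. All 4 were called with adjusted p between 0.0106 and 0.0229, but not stably. Without wild-type LL replicate 2, Arl1 (adjusted p = 0.0595), tropomyosin (log2 fold change -0.52), TrA0359W (adjusted p = 0.0698), TrA1754W (up to 0.0757) and TrB1223W (up to 0.0949) were lost. TrA1754W was also lost without wild-type LL replicate 3, and TrB1223W without wild-type LL replicate 1 and Δrgs4 LL replicates 2 and 3. Fitting only the 6 LL libraries also ended both calls.

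Among 13 genes of metabolic enzymes, 9 were called lower, 2 higher and 2 were not called. Over all genes tested, 1.69% were called lower and 0.427% higher. This list too was picked by the study from the same libraries, so that its counts do not show a direction of the class. Energy metabolism was represented by the alpha subunit of succinate-CoA ligase (TrD1325C) of the citric acid cycle, with 47.9, 45.6 and 54.1 normalized counts in Δrgs4 against 86.8, 93.9 and 87.2 in the wild-type (log2 fold change -0.84, adjusted p = 0.00753). The mannitol-1-phosphate dehydrogenase gene TrG0013W, for the formation of mannitol from fructose 6-phosphate, had 196, 204 and 219 normalized counts in Δrgs4 against 361, 355 and 299.6 in the wild-type (log2 fold change -0.70, adjusted p = 0.00374). Both were well separated between the strains. TrG0012W next to TrG0013W, named here after its values were seen, was also called lower, and such pairs or longer runs occurred 4 times among the calls, each time in the downward direction. The number expected by chance was not computed. With 150 genes called lower and 38 called higher, adjacent calls are more likely in the downward direction.

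In amino acid metabolism, the gene of the ProFAR isomerase of histidine synthesis (TrA1396C) had 101, 109 and 124 normalized counts in Δrgs4 against 216, 234 and 184 in the wild-type (log2 fold change -0.91, adjusted p = 0.006). The 3-hydroxyisobutyrate dehydrogenase gene TrA1757W, for a step of valine breakdown, had 81.4, 74.1 and 84.3 normalized counts in Δrgs4 against 134, 146 and 155 in the wild-type (log2 fold change -0.84, adjusted p = 0.00596). The glutaredoxin gene TrB1911C, for thiol redox balance, had 442, 372 and 419 normalized counts in Δrgs4 against 622, 697 and 719 in the wild-type (log2 fold change -0.72, adjusted p = 0.00459). Together with TrD1325C and TrG0013W, these were the 5 decreases of this list that were kept in each of the 6 fits without 1 LL library. Homoserine dehydrogenase (TrG0494W, log2 fold change -0.66) lies close to rgs4 and missed the fold threshold without Δrgs4 LL replicate 2 (-0.57). The acyl-CoA thioesterase gene TrD0714W (-0.80) was lost without wild-type LL replicate 1 or 2 or Δrgs4 LL replicate 1 (adjusted p of up to 0.109), and the short-chain dehydrogenase gene TrD1176C (-1.19) was kept only without Δrgs4 LL replicate 2 (up to 0.105). A gene with the epsilon chain domain of the mitochondrial ATP synthase (TrE0815C, -0.80) was lost in each of the 6 fits without 1 LL library (up to 0.181). Only the 6 LL libraries gave no call for TrD0714W and TrD1176C, and limma-voom none for TrD1176C and TrE0815C.

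Upward changes among the enzymes concerned the adenosine/AMP deaminase gene TrA1929W and the tyrosinase gene TrG0897W. TrA1929W, for purine turnover, had 549, 536 and 513 normalized counts in Δrgs4 against 376, 356 and 303 in the wild-type (log2 fold change 0.63, adjusted p = 0.00777). The tyrosinase gene, whose product type oxidizes phenols on the way to melanins, had the most normalized counts of all called genes in Δrgs4, with 22633, 29021 and 25528 normalized counts in Δrgs4 against 17007, 18154 and 15550.0 in the wild-type (log2 fold change 0.60, adjusted p = 0.0131). Both changes were close to the fold threshold. They fell short of it without wild-type LL replicate 3 (log2 fold change 0.54 for TrA1929W), and tyrosinase also without Δrgs4 LL replicate 2 (0.51 at the least) and with upper-quartile scaling. Not called were the short-chain dehydrogenase gene TrE0691C (log2 fold change -0.84, adjusted p = 0.0556) and the alcohol dehydrogenase gene TrA1267W (-0.15, adjusted p = 0.699).

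Carbohydrate-active enzymes comprise those that degrade cellulose, the carbon source here, and others such as enzymes of N-glycan processing. Of 9 listed genes of this mixed class, 4 were called lower, 2 higher and 3 were not called. Both listed genes for enzymes that transfer or remove mannose were lower. The GT32 mannosyltransferase gene TrE0204W had 650.2, 649.8 and 764 normalized counts in Δrgs4 against 1206, 1283 and 1009 in the wild-type (log2 fold change -0.76, adjusted p = 0.00511), and the GH47 alpha-mannosidase gene TrG0512W had 456, 326 and 455 normalized counts in Δrgs4 against 621, 706 and 629 in the wild-type (log2 fold change -0.67, adjusted p = 0.0213). TrE0204W was called in each of the 6 fits without 1 LL library, whereas TrG0512W was lost without wild-type LL replicate 2 or 3 or Δrgs4 LL replicate 2 (adjusted p of up to 0.0899) and with only the 6 LL libraries.

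The other calls of this list went in both directions. A candidate GH43 beta-xylosidase gene (TrB0877C) had 115, 84.4 and 66.9 normalized counts in Δrgs4 against 156, 144 and 139 in the wild-type (log2 fold change -0.74, adjusted p = 0.0292). In contrast, the GH3 beta-xylosidase gene bxl1 (TrC1552C) had 163, 119.7 and 84.3 normalized counts in Δrgs4 against 57.4, 56.7 and 78.7 in the wild-type (log2 fold change 0.87, adjusted p = 0.0632) and was not called. A GH16 endo-glucanase candidate (TrB0225W) had 50.6, 47.9 and 26.6 normalized counts in Δrgs4 against 13.4, 9.31 and 27.5 in the wild-type (log2 fold change 1.29, adjusted p = 0.0483). This was the 1 called gene with overlap, as replicate 3 of the wild-type was above replicate 3 of Δrgs4. The GH109 gene TrD1405C had 101, 99.2 and 84.3 normalized counts in Δrgs4 against 47.7, 54.2 and 53.1 in the wild-type (log2 fold change 0.85, adjusted p = 0.0273), and the CE10 esterase gene TrC1211C had 66.0, 91.2 and 125 normalized counts in Δrgs4 against 231, 179 and 151 in the wild-type (called lower, 95% interval of the log2 fold change -1.60 to -0.40, adjusted p = 0.044). None of these 4 calls was stable. TrB0877C was kept only without Δrgs4 LL replicate 1 (adjusted p otherwise up to 0.0957), TrC1211C only without Δrgs4 LL replicate 3 (up to 0.127) and TrB0225W only without wild-type LL replicate 3 or Δrgs4 LL replicate 3 (up to 0.178), while TrD1405C was lost in each of the 6 fits without 1 LL library (up to 0.0864). TrB0877C, TrC1211C and TrB0225W were also lost with only the 6 LL libraries and with limma-voom, and TrB0225W with TMM or upper-quartile scaling (adjusted p of 0.0513 and 0.0585). The GH3 beta-glucosidase gene bgl3i (TrA0299W) had 2815, 2199 and 2382 normalized counts in Δrgs4 against 2331, 2011 and 2274 in the wild-type (log2 fold change 0.16, with a 95% interval of -0.10 to 0.42), and the GH18 gene endo T (TrF0168W) had a log2 fold change of -0.17 (95% interval -0.66 to 0.31).

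Of 16 transporter genes 1 was called lower, 3 were called higher and 12 were not called. A higher mean in Δrgs4 was found for 11 of the 16, against 4810 of all 8895 genes tested. Since this list too was picked by the study from the same libraries, these shares do not show a direction of the class. The amino acid transporter gene TrA0392C was the decreased one, with 242, 267 and 315 normalized counts in Δrgs4 against 394, 498 and 461 in the wild-type (log2 fold change -0.71, adjusted p = 0.00642), and its call was kept in each of the 6 fits without 1 LL library. An ABC transporter gene of the MRP type (TrG0838W) had 421, 292 and 252 normalized counts in Δrgs4 against 149, 158 and 205 in the wild-type (log2 fold change 0.89, adjusted p = 0.0158). The MFS permease gene TrC1338C had 1513, 1124 and 1119 normalized counts in Δrgs4 against 716, 645 and 772 in the wild-type (log2 fold change 0.80, adjusted p = 0.0409). Both increases left the libraries of the strains apart. TrC0132C, a GABA permease gene, had a log2 fold change of 0.63 (adjusted p = 0.0487). The calls of TrC1338C and TrC0132C were lost in each of the 6 fits without 1 LL library (adjusted p of up to 0.148 and 0.13) and that of TrG0838W without wild-type LL replicate 1 or 2 (up to 0.0706). TrC0132C was also lost with TMM or upper-quartile scaling and with limma-voom, and TrC0132C and TrG0838W with only the 6 LL libraries.

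Some transporter genes had large fold changes with wide errors and were not called. For the amino acid transporter gene TrB0212C the log2 fold change of 1.54 had a 95% interval of 0.49 to 2.58. In a second GABA permease gene, TrA1398C, replicate 2 of Δrgs4 stood far above the others, with 120.3, 414 and 138 normalized counts in Δrgs4 against 64.8, 94.8 and 78.7 in the wild-type (95% interval of the log2 fold change 0.45 to 2.06). The gene of the plasma membrane H+ ATPase (TrA2081W), which builds up the proton gradient for uptake, had 3236, 2890.0 and 2101 normalized counts in Δrgs4 against 1164, 1273 and 2105 in the wild-type (95% interval 0.31 to 1.46). Wild-type LL replicate 3 lay at 2105 and the lowest Δrgs4 library at 2101, so that the strains overlapped. The aquaglyceroporin gene TrF1134W had 47.0, 38.8 and 57.8 normalized counts in Δrgs4 against 127, 149 and 71.1 in the wild-type (95% interval -2.00 to -0.38) and did not overlap. The adjusted p of these 4 genes lay between 0.0556 and 0.0673, and each was called in 2 or fewer of the 12 fits without 1 library. In 7 of the other 8 genes not called, log2 fold changes were between -0.27 and 0.47, and that of the oligopeptide transporter gene TrA0967C was 0.49.

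Of 8 genes for transcription factors and chromatin proteins, 3 were called lower and 2 higher. A myb regulator gene with a SANT domain (TrB0388C), a fold found in chromatin proteins, had 18.1, 22.8 and 22.9 normalized counts in Δrgs4 against 58.7, 52.5 and 39.8 in the wild-type (log2 fold change -1.16, 2.37-fold lower, adjusted p = 0.006). The Zn2Cys6 regulator gene TrB1006C, of the zinc cluster class of fungal activators, had 208, 185 and 209 normalized counts in Δrgs4 against 376, 388 and 338 in the wild-type (log2 fold change -0.87, adjusted p = 0.003). Both were clearly apart between the strains and kept their calls in each of the 6 fits without 1 LL library. Another myb regulator gene (TrE0456W) was higher in Δrgs4, with 961, 684 and 691 normalized counts in Δrgs4 against 434, 421 and 536 in the wild-type (log2 fold change 0.74, adjusted p = 0.0327), but this call was lost in each of the 6 fits without 1 LL library (adjusted p of up to 0.133). The predicted transcription factor genes TrA1148C (log2 fold change 0.65) and TrB0194W (-0.83) were not stable either. TrA1148C was lost without wild-type LL replicate 1 or 2 or Δrgs4 LL replicate 2 (adjusted p of up to 0.072), and TrB0194W was kept only without Δrgs4 LL replicate 3 (otherwise up to 0.15). With only the 6 LL libraries TrE0456W, TrA1148C and TrB0194W were not called, nor was TrB0194W with limma-voom. Of the regulators of sorbicillin formation, ypr1 (TrE0665C) had 1 read in 1 of the 6 libraries, and ypr2 (TrE0663W) had 405, 365 and 319 normalized counts in Δrgs4 against 469, 410.5 and 439 in the wild-type (log2 fold change -0.28, adjusted p = 0.145).

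Genes for secreted proteins, defence and secondary metabolism were called lower in 4 of 15 cases and in none higher. Of the 15, 12 had a lower mean in Δrgs4, against 4079 of all 8895 genes tested. As the study picked the listed genes from the same libraries, these shares do not show a direction of the class. The small secreted cysteine-rich protein gene TrB0322W had 1059, 1555 and 1986 normalized counts in Δrgs4 against 3340.4, 4566 and 2552 in the wild-type (log2 fold change -1.19, adjusted p = 0.026), and another of this kind, TrG0955C, had 143, 121 and 168 normalized counts in Δrgs4 against 214, 262 and 266 in the wild-type (log2 fold change -0.78, adjusted p = 0.0191). An orphan secreted protein gene (TrF0745W) had 1246, 1441 and 1555 normalized counts in Δrgs4 against 2591, 2673 and 2077 in the wild-type (log2 fold change -0.79, adjusted p = 0.0112). The fourth was the P450 gene TrD0325W beside the iron transporter gene. TrB0322W was lost without wild-type LL replicate 1 or 2 or Δrgs4 LL replicate 1 or 2 (adjusted p of up to 0.11) and with only the 6 LL libraries, TrG0955C without wild-type LL replicate 2 or 3 or Δrgs4 LL replicate 2 (up to 0.0811) and TrF0745W without wild-type LL replicate 2 (up to 0.0581).

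The alamethicin synthase gene tex1 (TrG0248C), for the peptaibol antibiotic, was not called. It had 14011, 11130.3 and 17467 normalized counts in Δrgs4 against 41710.1, 30877 and 18389 in the wild-type, without overlap but with a wild-type range of more than 2-fold (log2 fold change -1.04, 95% interval -1.75 to -0.33, adjusted p = 0.0666). Leaving out wild-type LL replicate 3 or Δrgs4 DD replicate 3 made it a call. The aminoglycoside N-acetyltransferase gene TrE0061C had 37.1, 28.5 and 33.0 normalized counts in Δrgs4 against 7.33, 22.9 and 14.2 in the wild-type (95% interval 0.39 to 1.92). Of the glutathione S-transferase genes, for the detoxification of electrophiles, TrB1934C had a log2 fold change of -0.57 (adjusted p = 0.0811), TrF1200C one of -0.04 and TrE0246W one of -0.04. Neither of the chloroperoxidase genes TrE0148W (-0.37) and TrE0168W (-0.29) was called.

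Proteases and esterases comprised 7 genes, of which 1 was called lower and 1 higher. The lipase/esterase gene TrG0808C had 278, 252 and 275 normalized counts in Δrgs4 against 468, 444 and 434 in the wild-type (log2 fold change -0.74, adjusted p = 0.00374) and was called in each of the 6 fits without 1 LL library. The carboxylesterase gene TrC0080W had 68.7, 60.4 and 39.4 normalized counts in Δrgs4 against 29.3, 25.4 and 19.9 in the wild-type (log2 fold change 1.09, adjusted p = 0.0432), and this call was kept only without Δrgs4 LL replicate 3 (adjusted p otherwise up to 0.122). It was also lost with upper-quartile scaling, with only the 6 LL libraries and with limma-voom (adjusted p of 0.0525, 0.0585 and 0.125). A serine carboxypeptidase gene (TrB1064C) had 356, 941 and 466 normalized counts in Δrgs4 against 152, 256 and 279.7 in the wild-type, with replicate 2 of Δrgs4 far above the rest (log2 fold change 1.27, 95% interval 0.44 to 2.11, adjusted p = 0.0599). The carboxypeptidase A gene TrB0248C was nearly equal in both strains, with 517, 539 and 592 normalized counts in Δrgs4 against 526, 561 and 546 in the wild-type (log2 fold change 0.01, 95% interval -0.26 to 0.29).

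In all lists together, 25 of the 50 genes called lower and 2 of the 17 genes called higher kept their call in all 6 fits without 1 LL library. Wild-type LL replicate 2 was the library on which most calls rested, as 23 of the 50 and 13 of the 17 were lost without it. With only the 6 LL libraries, 14 of the 50 and 10 of the 17 were lost, and with limma-voom 7 and 8. From the values as deposited, 31 of the 50 and 13 of the 17 were lost. Gene lengths were available from RefSeq for all 67 called genes of the lists. The median length was 1008.5 bases for those called lower and 1667 bases for those called higher, against 1247 bases for 35 of the 37 that were not called and 1503 bases for all 9109 protein-coding genes. Of the list genes called lower, 48% were shorter than 1000 bases, of those called higher 17.6% and of those not called 28.6%. The share was 24.6% for all protein-coding genes. Among all called genes with a length in RefSeq, it was 53.4% for those called lower and 33.3% for those called higher. The part of gene length in the result was not tested.

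Of the genes without a role in the sources, the rule for large changes added few. TrD0649C had 2909, 2406 and 2255 normalized counts in Δrgs4 against 7046, 11528 and 7039 in the wild-type (log2 fold change -1.73, adjusted p = 0.0264), and TrA0684C had 28.0, 29.6 and 38.5 normalized counts in Δrgs4 against 119.8, 91.4 and 85.3 in the wild-type (log2 fold change -1.56, adjusted p = 0.0191). Neither showed overlap between the strains. TrD0649C was kept only without Δrgs4 LL replicate 1 (adjusted p otherwise up to 0.112) and TrA0684C only without replicate 3 of either strain (otherwise up to 0.0686), and TrA0684C was lost with limma-voom. In the upward direction, TrC0596C had 256, 258 and 283 normalized counts in Δrgs4 against 133, 133 and 125 in the wild-type (log2 fold change 1.01, 2.04-fold higher, adjusted p = 0.00301), with log2 fold changes of 0.97 to 1.04 and a call in each of the 6 fits without 1 LL library. TrF0758W had a log2 fold change of 0.83 and was lost without wild-type LL replicate 1 or 2 or Δrgs4 LL replicate 2 (adjusted p of up to 0.0698), with only the 6 LL libraries and with limma-voom.

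Genes with many reads were also among the calls. The neighbours TrC1161W and TrC1162W had 13539, 9804 and 13019 normalized counts in Δrgs4 against 22938, 23515 and 16623 in the wild-type and 10518, 7504 and 9152 normalized counts in Δrgs4 against 17722, 19657 and 13445 in the wild-type (log2 fold changes -0.79 and -0.90, adjusted p of 0.0271 and 0.0409). TrC1160W beside them had means of 46737 in Δrgs4 and 57835 in the wild-type and was not called (log2 fold change -0.30, adjusted p = 0.198). TrC1439W had 9270.4, 11151 and 12645 normalized counts in Δrgs4 against 18334, 17257 and 16139.8 in the wild-type (log2 fold change -0.66, adjusted p = 0.0402). In none of the 3 called genes did the libraries overlap. Their calls were weak, since TrC1162W and TrC1439W were lost in each of the 6 fits without 1 LL library (adjusted p of up to 0.156 and 0.122) and TrC1161W was kept only without wild-type LL replicate 3 or Δrgs4 LL replicate 1 (otherwise up to 0.114) and not with only the 6 LL libraries. Among the genes with most reads called higher, TrB0335W (log2 fold change 0.59) and TrF1092C (0.59) were just beyond the fold threshold. Both were lost with TMM or upper-quartile scaling, TrB0335W also without wild-type LL replicate 2 or Δrgs4 LL replicate 2 (0.51 at the least), and TrF1092C in each of the 6 fits without 1 LL library except that without Δrgs4 LL replicate 2 (0.50 at the least).

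Around the deleted gene, transcripts of the neighbours were followed in light. TrG0495C on one side had 92.2, 129 and 77.0 normalized counts in Δrgs4 against 66.0, 66.0 and 85.3 in the wild-type (log2 fold change 0.42, adjusted p = 0.599), and TrG0497W on the other side had 1129.5, 1190.2 and 1106 normalized counts in Δrgs4 against 1234, 1245 and 1124 in the wild-type (log2 fold change -0.07, adjusted p = 0.554). Both overlapped between the strains. TrG0494W, the homoserine dehydrogenase gene, had 1394, 1081 and 1201 normalized counts in Δrgs4 against 1923, 2008 and 1855 in the wild-type and was the only called gene among the 3 on each side (log2 fold change -0.66, adjusted p = 0.00484). In darkness its log2 fold change was -0.52. TrG0493C and TrG0498C were not called, and TrG0499W had 0 reads in all 6 libraries. The part of the neighbouring cassette in these values was not tested.

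The same genotype comparison in darkness used other libraries. Of the 149 genes called lower in light besides rgs4, 84 (56.4%) also had a lower mean in Δrgs4 in darkness, against 46.3% of all genes tested, and the median of their dark log2 fold changes was -0.04. Of the 38 genes called higher in light, 25 (65.8%) also had a higher mean in darkness, against 53.7% of all genes tested. Without Δrgs4 DD replicate 3, whose correlations with the other 5 dark libraries ran from 0.965 to 0.983, against 0.975 to 0.993 among those, these shares were 61.7% and 65.8%, an alternative chosen after the data were seen. In darkness only 8 of all genes tested were called, and only rgs4 was called in both light conditions. With so few dark calls, the small overlap does not show that the deletion acted on different genes. The interaction was called with the same sign for 28 of the genes lower and 6 of the genes higher in light, so that a difference between light and darkness was shown for a minority of the light calls.

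Among the genes of the lists, 17 of the 50 called lower and 3 of the 17 called higher in light also had a called interaction. These genes were selected by their change in light, which is a part of the interaction, so that the shares are not independent of it. The iron transporter gene TrD0323C had log2 fold changes of -1.80 in light and 0.47 in darkness (interaction -2.27, adjusted p = 0.0378). For the P450 gene TrD0325W they were -0.72 in light and 0.61 in darkness (interaction -1.33, adjusted p = 0.0126). For Arc15 (TrC0611W) they were -0.78 in light and 0.13 in darkness (interaction -0.91, adjusted p = 0.016). The first of these interactions was kept in 2 of the 12 fits without 1 library, that of TrD0325W in all 12 and that of TrC0611W in 11, lost without Δrgs4 DD replicate 1. In contrast, the myb regulator gene TrB0388C (-1.16 in light and -0.90 in darkness) and the orphan secreted protein gene TrF0745W (-0.79 and -0.80) had negative values in both conditions. They were not called in darkness, and no interaction was called for them.

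**Figure D5:**
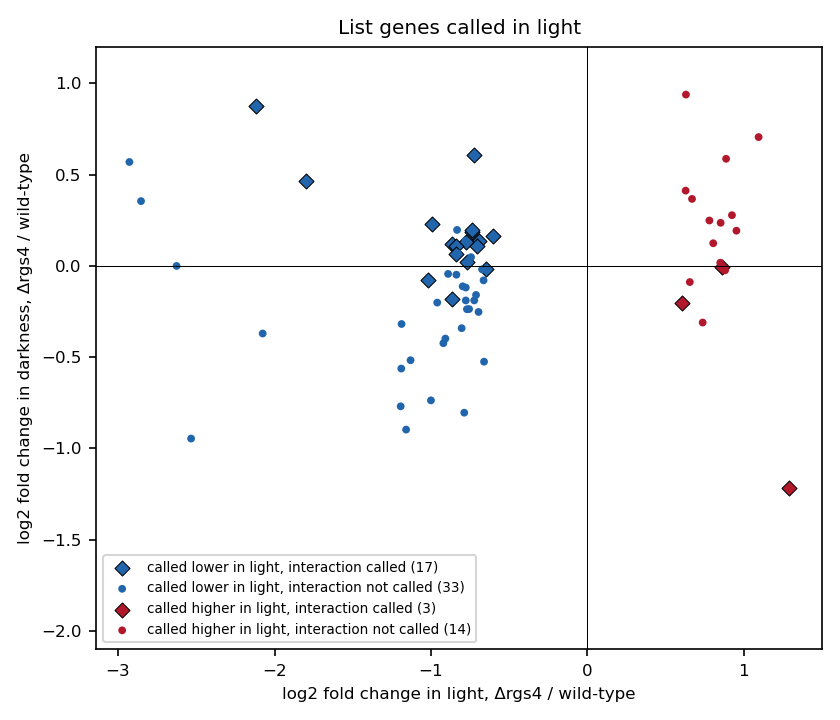
For the 67 genes of the lists that were called in light, the log2 fold change of Δrgs4 over the wild-type in light (horizontal axis) is plotted against that in darkness (vertical axis). Blue points were called lower and red points higher in light, and diamonds with a black edge mark the 17 and 3 genes whose interaction of genotype and light was called. Most blue diamonds lie at or above 0 in darkness.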

How the data were processed

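RNA was sequenced from shake flask cultures of both strains in LL and DD, 3 per group, and samples were grouped by the labels. The authors trimmed reads with bbduk, aligned them with HISAT2 2.2.1 and counted them per gene with featureCounts. No source used here gives the strand and multi-mapping settings. Overlapping genes and close paralogs are therefore uncertain. The authors deposited log2-like values, variance stabilized with DESeq2, and these were used here. The table of raw counts they deposited has 12 columns that could not be paired with samples and was not used.

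The transformation was inverted with the lowest value, 6.74, which stands for 0 reads. All values then came out as whole reads within 0.01, with 11.25 to 15.84 M reads on genes per library. No source used here says whether pairs were counted as 1. The limit given for rgs4 covers counting error only. Genes reaching 10 reads in 3 or more libraries were tested with limma 3.58.1 (R 4.3.3) on log2(normalized counts + 2), with trended variance, 4 group means and all 12 libraries, and Benjamini-Hochberg adjustment. Thresholds follow the study's methods. Intervals are 95% confidence intervals of this fit.

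Genes were named by rule: the 104 genes of the lists; rgs4 with 3 neighbours on each side; the 10 largest changes each way among called genes without overlap and with 50 normalized counts in a group, with at most 2 without a role printed each way; the 5 most abundant called genes each way; and runs of 3 or more called neighbours. Neighbours follow the gene numbers. The members and lists were chosen with earlier results of these data known. RefSeq (another assembly) gave gene lengths only. TMM and upper-quartile factors, only the 6 LL libraries, a replicate block, 2 filters, pseudocounts of 0.5 and 5, the deposited values, limma-voom, adjusted p alone and leaving out each library were run as alternatives. Steps were tested on simulated data. Python 3.11.15, pandas 2.3.3 and matplotlib 3.10.9 were used for reading and plots.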

Additional observations from a re-analysis of the deposited data

Results flagged for a closer look

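For 25 of the named genes the effect of the deletion in light differed from that in darkness by the interaction test of limma (Benjamini-Hochberg adjusted p < 0.05 and a log2 difference beyond 0.58). Over all 8895 genes tested, 45 such differences were negative (0.506%) and 18 positive (0.202%). Most named genes were chosen with their change in light known, which is a part of this difference, so that their number is no independent evidence. The differences below are the log2 fold change in light minus that in darkness.

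Iron-related genes with a negative difference were SID6 (TrE0014C, -3.00), the iron transporter gene TrD0323C (-2.27) and its neighbour, the P450 gene TrD0325W (-1.33), whereas that of the CFEM protein gene TrG0359C was positive (0.87). SID6 had 2, 2 and 1 reads in Δrgs4 and 0 in all 3 wild-type libraries in darkness, so that the dark part of its difference is set by the pseudocount. Of the ribosomal protein genes, rla1 (TrB1847W) had -0.94, rla2 (TrD0208W) -0.98, rps21 (TrB0594C) -0.93, rps28 (TrC1311W) -1.22, TrC1283C -0.63 and TrB0953C -0.76. Negative differences were also found for the exonuclease family gene TrA1514W (-0.79), Tim17 (TrB0123W, -0.83), Arc15 (TrC0611W, -0.91), succinate-CoA ligase (TrD1325C, -0.95), 3-hydroxyisobutyrate dehydrogenase (TrA1757W, -0.91), mannitol-1-phosphate dehydrogenase (TrG0013W, -0.82), the Zn2Cys6 regulator gene TrB1006C (-0.68), the glutathione S-transferase gene TrB1934C (-1.62) and the lipase/esterase gene TrG0808C (-0.94).

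Positive differences were found for tyrosinase (TrG0897W, 0.80), the GH16 candidate TrB0225W (2.51), bgl3i (TrA0299W, 0.92), Dip5 (TrB1799C, 1.42), carboxypeptidase A (TrB0248C, 0.86) and TrC0596C (0.88). In bgl3i, Dip5 and carboxypeptidase A the change lay in darkness, with log2 fold changes of -0.77, -1.69 and -0.84, and none of them was called in light. All 25 differences were lost with the replicate number as a block. Those of TrB1847W, TrB0594C, TrC1311W and TrD0325W were kept in all 12 fits without 1 library, those of TrB0953C and TrC0611W in 11, and the other 19 in 6 or fewer. All 25 stayed called without Δrgs4 DD replicate 3, the dark library that stood apart.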

How the results depend on the processing

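The main numbers of 150 genes called lower and 38 called higher in Δrgs4 LL changed with several choices. With the replicate block they were 37 and 3, with the values as deposited 30 and 5, and by adjusted p alone 416 and 379. Upper-quartile factors gave 191 lower and 21 higher. When 1 of the 12 libraries was left out, 43 to 190 genes were called lower and 7 to 56 higher, with the lowest numbers without wild-type LL replicate 2 and the highest without Δrgs4 DD replicate 3. The numbers stayed within 1.5 times with TMM factors (167 and 29), only the 6 LL libraries (105 and 29), both other filters (147 and 37 without a filter beyond 1 read, 155 and 37 with 10 reads in every LL library), both pseudocounts (150 and 40 with 0.5, 151 and 35 with 5) and limma-voom (136 and 29). Of the 150 genes called lower, 29 were also called from the deposited values, 91 with only the LL libraries and 130 with limma-voom. The deposited scale compresses the change of genes with few reads by its construction, and for the other losses the cause was not tested.

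Deviations from the group means of same-numbered libraries correlated at 0.35, 0.22 and -0.21 in LL and at -0.41, 0.24 and -0.16 in DD. These values showed no common pairing by replicate number, but they are too few to decide whether cultures shared a batch. Of the 67 calls in the lists, the replicate block ended 27 of 50 lower and 16 of 17 higher ones. Single named genes kept their direction and their side of the thresholds in 1021 of 1190 comparisons with other settings and in 1205 of 1440 without 1 library, and no called change reversed its sign. Depth limits genes with fewer than 50 normalized counts, for which standard errors were largest. The 3 cultures per group come from 1 strain each, so that spread between transformants was not measured.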
